A study of Mus musculus with 4 samples.

Results

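Sites listed as unconverted in bisulfite sequencing on the minus strand of the mouse genome, in genes other than 6 transcripts of the pancreas, made up 3768 of the 506952 positions in the deposited table. The rule used position and label only, and was set with earlier results of these data known. The strand had to be minus, the sequence a chromosome and the gene label present, and the label could not name Ins2, Gcg, Sst, Ppy, Cela1 or Ctrb1. The 6 excluded genes held 429 further minus-strand sites. The main comparison is with the 475639 plus-strand sites in labelled genes.

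The study converted poly(A) RNA with bisulfite and sequenced it from NRAS/AE9a cells, a mouse model of acute myeloid leukemia kept in culture. There were 2 libraries of Tet2 KO cells and 2 libraries of WT cells. Both genotypes carry NRAS and AE9a, a truncated AML1-ETO fusion, and all were cultured in RPMI medium with the selection agents puromycin (2 µg/ml) and G418 (1 mg/ml) and the mouse cytokines IL-6 (10 ng/ml), IL-3 (10 ng/ml) and SCF (50 ng/ml). The labels give neither the deleted part of Tet2 nor the strain, and leave the nature of the replicates (cultures, clones or repeat libraries) unstated. The table lists sites that, by its name, are unique to the Tet2 KO, and has 0 columns with WT values, so no difference between Tet2 KO and WT cells was tested. Values of both KO libraries are merged in it, so no test across samples could be made. Strands are compared below by values and by counting intervals that treat sites as independent, which neighbouring sites in 1 transcript are not.

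In RNA, 5-methylcytosine is placed by enzymes of the NSUN family and by DNMT2, and TET2 can oxidise it. Bisulfite turns unmethylated cytosine into uracil and leaves 5-methylcytosine intact. The methylation level of a site is therefore the fraction of the reads used that still show cytosine. A level is a share of reads, and does not by itself show that the base carries a methyl group.

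The reference sequence around sites near gene starts shows what was called. RefSeq start windows (GRCm38.p6) run from 250 bases before to 50 bases after an annotated start of a gene. That start can lie inside the RefSeq gene span rather than at its 5′ end, as in Eif5a, Gpr137, Hmgb1 and Zfp131. The windows held 52 of the sites, 48 of them in the window of their own gene. The 8 stretches below, of at most 30 bases, are those with several listed positions close together, read 5′ to 3′ on the minus strand. Capitals mark the listed positions.
Ankrd13b, chr11:77489642-77489671: CgagccGCagcccCgcgagcagacagctcC
Zdhhc18, chr4:133633381-133633410: CcgaggcCcgcggccggccgcatgaaggaC
Eif5a, chr11:69920581-69920599: cccctcccccctgGCCcgg
Eif4ebp2, chr10:61452649-61452677: cagcgggacgacCgggCgagagcaggcga
Gpr137, chr19:6941178-6941206: gccagccggacaCgaGCaaccaaggccag
Stoml2, chr4:43031335-43031363: gcgcggcgcggggCaCtggagcccttttg
Hmgb1, chr5:149051765-149051793: ggcggagccagccCcCatttcgagcggcg
Zfp131, chr13:119790476-119790505: ggtcaggctcggAgttCCgcggccgcggct
In the Ankrd13b stretch the 5 listed positions had levels between 0.2 and 0.338, and in the Zdhhc18 stretch the 3 positions had levels between 0.25 and 0.364. Ankrd13b encodes an ankyrin repeat protein that binds ubiquitin, and Zdhhc18 a palmitoyltransferase. Eif5a, the gene of a translation factor that carries hypusine, had 3 positions with levels between 0.25 and 0.28. Eif4ebp2, which encodes a repressor of cap-dependent translation, had 2 positions with levels of 0.353 and 0.214. The stretches of Hmgb1, a chromatin protein gene, and Zfp131, a zinc finger gene, lie before the start that their windows use. Both still lie inside the RefSeq span of the gene. Their levels were 0.273 to 0.4 and 0.2 to 0.238.

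Not every listed position is a cytosine in the reference. Of the 52 minus-strand sites in start windows, 45 fell on C (86.5%, exact 95% interval 74.2 to 94.4), 5 on G, 2 on A and 0 on T. Capital G in the Ankrd13b, Eif5a and Gpr137 stretches marks 3 of the 5 on G, and capital A in the Zfp131 stretch 1 of the 2 on A. For plus-strand sites in the windows of plus-strand genes, 1100 of 2213 fell on C (49.7%, interval 47.6 to 51.8), 702 on G, 411 on A and 0 on T. The first 50 transcribed bases of minus-strand genes were 26.5% C. Both intervals cover counting error only. At a position that is not a cytosine in the reference, the level is not a measure of conversion of that base. The median level of plus-strand sites was 0.7 at C, 0.667 at G and 0.6 at A, and that of minus-strand sites 0.231 at C, 0.294 at G (5 sites) and 0.219 at A (2 sites). At positions 1 to 3 bases before or after the listed one, C made up 26.9% to 38.5% on the minus strand and 27.4% to 30.7% on the plus strand. There, 5 to 9 of the minus-strand and 364 to 433 of the plus-strand positions were T, against 0 at the listed position on both. How many of the sites outside these windows fall on a cytosine was not analysed here.

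**Figure D1:**
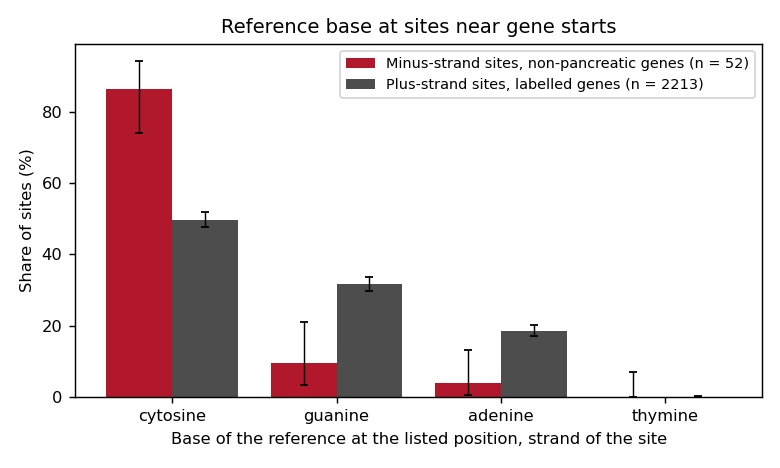
Share of listed sites (%) by the reference base at the position, on the strand of the site, for sites in RefSeq start windows. Bars with exact 95% intervals show 52 minus-strand sites in non-pancreatic genes (red, left of each pair) and 2213 plus-strand sites (grey). Cytosine accounts for 86.5% of the minus-strand sites and 49.7% of the plus-strand sites.

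The minus-strand sites stood close to the floor of the table. They had a median level of 0.214 (quartiles 0.2 and 0.273), whereas plus-strand sites had a median of 0.529 (quartiles 0.37 and 0.7). The lowest level in the table is 0.2, and 1572 minus-strand sites (41.7%) stood exactly at that floor, against 3.11% of plus-strand sites. A level below 0.3 was found at 82.9% of minus-strand and 13.6% of plus-strand sites. At the other end, 73 minus-strand sites (1.94%) reached 0.5, against 57.9% of plus-strand sites. The evidence per site was thin in both sets. Of the 3600 minus-strand sites called in 1 KO replicate, 1231 (34.2%) rested on 2 unconverted reads of 10 used, against 2.79% of plus-strand sites. The median number of reads used was 12 on both strands.

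**Figure D2:**
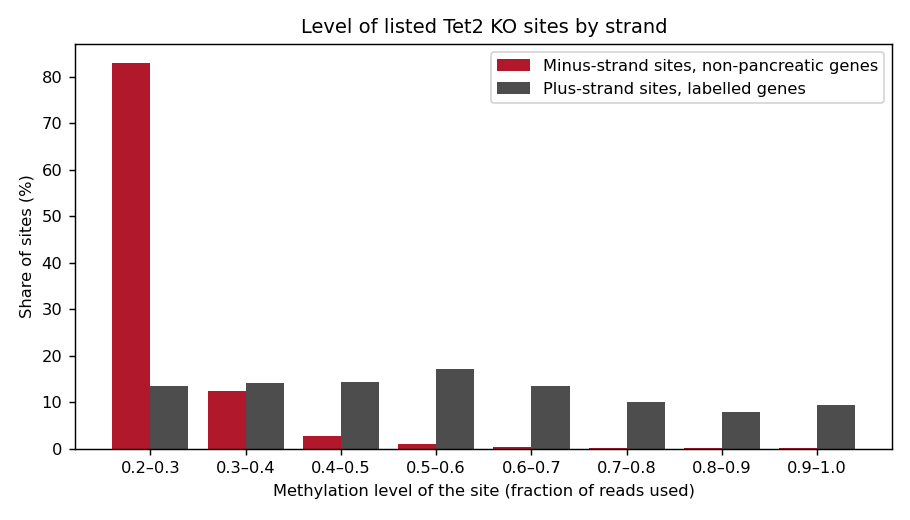
Share of sites (%) in classes of methylation level (fraction of the reads used), for minus-strand sites in non-pancreatic genes (red, left of each pair) and plus-strand sites in labelled genes (grey). The lowest class, from 0.2 to 0.3, holds 82.9% of the minus-strand sites and 13.6% of the plus-strand sites.

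The lower levels did not go with lower coverage. Minus-strand sites were covered by a median of 28 reads (range 10 to 218), against 18 reads for plus-strand sites. A median of 47.6% of the covering reads entered the level at minus-strand sites with 1 call, against 82.6% at plus-strand sites. Why the other covering reads were left out is not stated in any label or header. In the 6 coverage classes, minus-strand medians ran between 0.2 and 0.229 and plus-strand medians between 0.427 and 0.545. At 100 or more covering reads the median was 0.218 over 47 minus-strand sites and 0.427 over 2105 plus-strand sites. Matched instead on the reads used, sites with 50 or more had a median of 0.218 over 28 minus-strand sites, the highest at 0.327, and 0.474 over 8246 plus-strand sites. The order of the strands was the same in every class.

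Both KO replicates made the call at 168 minus-strand sites (4.46%, exact interval 3.82 to 5.17), whereas the share over plus-strand sites was 14.4%. In the class of 20 to 29 covering reads the shares were 4.42% on the minus strand and 18.2% on the plus strand. At 50 to 99 reads they were 7.22% on the minus strand and 17.4% on the plus strand. Sites with both calls had a median level of 0.263 and those with 1 call 0.214. The KO libraries differed in level by a median of 0.05 at the 168 minus-strand sites, by 0.368 at most, and by a median of 0.1 at plus-strand sites with both calls. Only sites that passed in both libraries enter, so this is not the full spread between them. Minus-strand levels also lie nearer the floor of 0.2, which leaves less room for a difference.

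**Figure D3:**
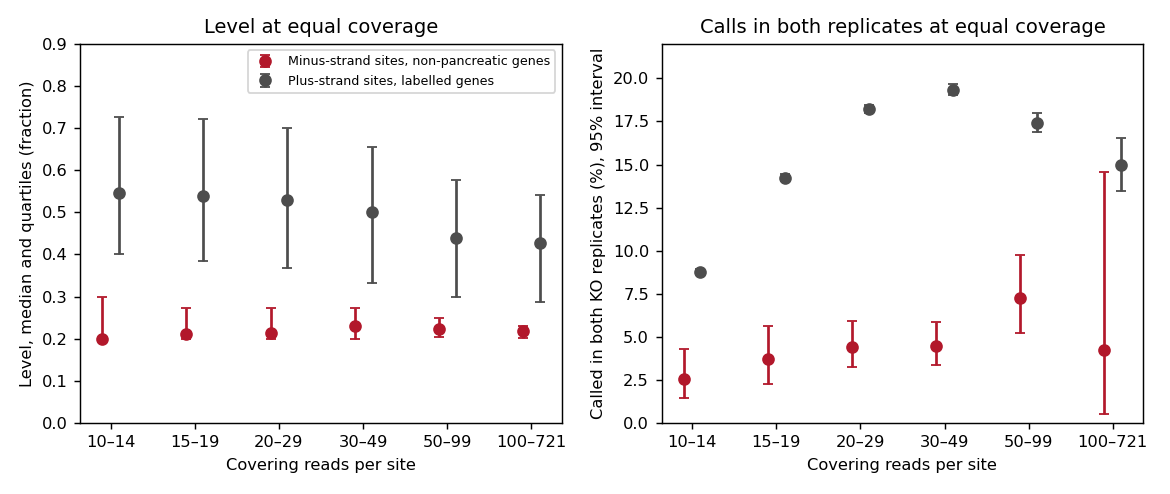
Level (left panel, median with quartiles as bars, fraction) and share of sites called in both KO replicates (right panel, %, with exact 95% intervals) by class of covering reads, for minus-strand sites in non-pancreatic genes (red) and plus-strand sites in labelled genes (grey). Minus-strand medians run between 0.2 and 0.229 and plus-strand medians between 0.427 and 0.545.

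The minus-strand sites were scattered over many genes. They carried 2044 gene labels, of which 2005 matched protein-coding genes in RefSeq, and 54 sites had several labels. All 1633 labels whose strand is in the RefSeq table used were minus-strand genes. A single site was found in 1235 genes (60.4%), 136 genes had 5 or more, and 12 had 10 or more. The median was 1 site per gene, against 68 over 5771 plus-strand gene labels, where 1.68% had a single site. All 20 chromosomes with such sites took part, with 76 to 399 sites and median levels between 0.2 and 0.231. Genes with a single site had a median level of 0.211 and 3.48% of calls in both replicates (interval 2.53 to 4.66). Genes with 5 or more sites had 0.247 and 8.14% (6.45 to 10.1). Of the sites in genes with 5 or more, 53.7% had another listed site within 10 nt.

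Listed neighbours were common in a part of the sites. Another listed site on the same strand lay within 10 nt of 20.1% of minus-strand sites (interval 18.8 to 21.4) and of 70.5% of plus-strand sites. Minus-strand sites formed 275 runs of 2 or more, 48 of them with 4 or more sites, and 134 had a listed neighbour at the very next base. Few lay inside a gene known to be on the plus strand or near a plus-strand site. The span of a plus-strand RefSeq gene held 128 sites (3.40%), and 20 had a plus-strand site within 100 nt. Genes whose strand is not in the RefSeq table used were not counted, so the share in plus-strand genes may be higher.

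Along genes, sites gathered at both ends. With RefSeq gene spans cut into 10 equal segments, the last segment had 25.1% of the 3797 minus-strand site and gene combinations (interval 23.7 to 26.5), and 28.8% of those on the plus strand. The first segment had 20.8% of the minus-strand combinations (19.5 to 22.1) and 8.26% of the plus-strand ones. Levels were similar along the span, with a median of 0.227 in the first segment and 0.214 in the last. Calls in both replicates made up 6.72% of minus-strand combinations in the first segment and 3.78% in the last. Read depth along the span was not taken into account, and exons and introns were not told apart.

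**Figure D4:**
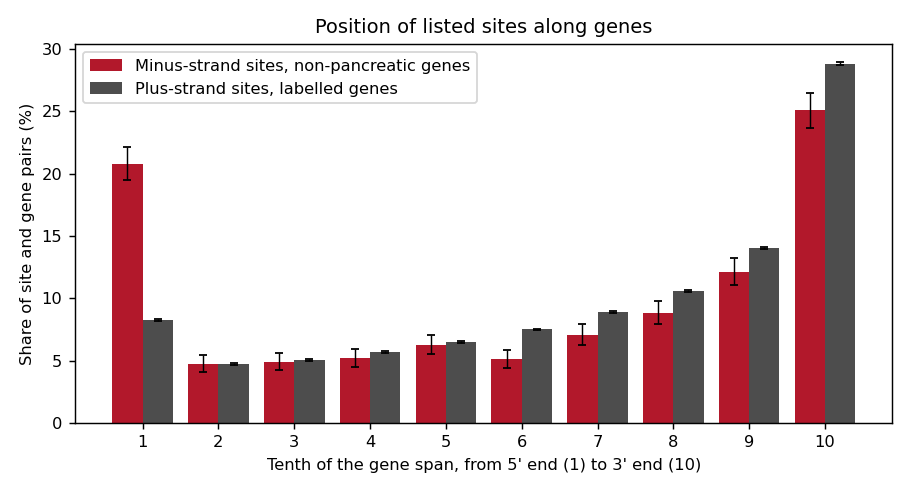
Share of site and gene combinations (%, with exact 95% intervals) in each of 10 equal segments of the RefSeq gene span, from the 5′ end (1) to the 3′ end (10). Minus-strand sites in non-pancreatic genes (red, left of each pair) have 20.8% in the first segment, where plus-strand sites (grey) have 8.26%.

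The gene with the most sites was Rpph1, which encodes the RNA subunit of RNase P, the enzyme that trims the 5′ ends of transfer RNA precursors. Its 24 sites on chromosome 14 (mm10) lay between 50807452 and 50807657, in a gene that spans 50807447 to 50807771. Their median level was 0.487, and 12 reached 0.5. The RefSeq strand of Rpph1 was not available, so its 5′ and 3′ ends are named by the strand of the sites. A run of 17 sites filled 42 nt at its 3′ end, with levels between 0.2 and 0.95 at 18 to 32 covering reads. The highest, at 50807463, kept 19 unconverted reads of 20 (Wilson 95% interval 0.764 to 0.991). The 7 sites farther 5′ were lower, with levels between 0.229 and 0.364. All 5 of its calls in both replicates lay in the run. Rmrp, which encodes the RNA of the related enzyme RNase MRP, had 4 sites with levels between 0.2 and 0.385.

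The other 11 genes with 10 or more sites are protein-coding, and their median levels ran between 0.2125 and 0.3555. Ppp1r12c, which encodes a regulatory subunit of myosin phosphatase, had 16 sites spread over 19930 nt of chromosome 7, with levels between 0.2 and 0.4. Arid1a, a subunit of the BAF chromatin remodelling complex, had 13 sites between 0.2 and 0.5, with 0 called in both replicates. The other genes with 13 sites were Mapkapk5, which encodes a kinase of the MAP kinase cascades, and Ankrd13b. Mapkapk5 had 10 of them in a run of 33 nt, with levels up to 0.583.

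In Ankrd13b, 6 of the 13 sites lay in 9 nt near the 3′ end of the gene and the other 7 near its start. Its levels ran between 0.2 and 0.381, and 4 sites were called in both replicates. Taf4, which encodes a subunit of the general transcription factor TFIID, and Bend4, a BEN domain gene, had all of their 12 and 10 sites in the first 10% of the span. The Taf4 sites lay within 354 nt and those of Bend4 within 132 nt. Rbm15b, which encodes an RNA-binding protein of the m6A methyltransferase complex, had 12 sites with a median of 0.218. Maged1 followed with 11 sites, and Zdhhc18, Kdm6b and Prrc2a with 10 each. Kdm6b encodes a demethylase of histone H3 and Prrc2a an m6A-binding protein.

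**Figure D5:**
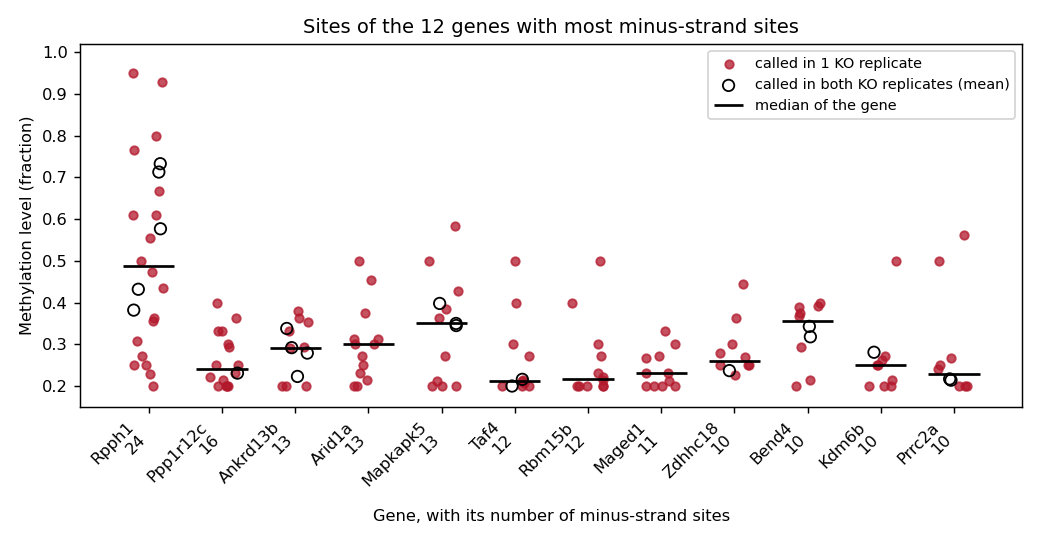
Methylation level (fraction) of each site in the 12 genes with most minus-strand sites, with the number of sites under the name. Filled points were called in 1 KO replicate, open circles in both (mean of the 2), and bars give the median of the gene. Rpph1 reaches 0.95, and the other 11 genes stay at or below 0.583.

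A level of 0.5 or more was found in 39 of the 2044 gene labels. Ptrf, renamed Cavin1 in RefSeq, encodes a coat protein of caveolae and had a run of 7 sites in 10 nt on chromosome 11, between 100958403 and 100958412. With ascending position their levels were 0.571, 0.667, 0.933, 0.923, 1, 0.929 and 0.769, at 15 to 17 covering reads. The highest, at 100958408, kept 14 of 14 reads (Wilson interval 0.785 to 1). Each of the 7 sites of the run was called in 1 replicate, and which one is not given. The other 2 Ptrf sites, outside the run, stood at 0.2.

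Smurf2, which encodes a ubiquitin ligase of TGF-beta signalling, had 9 sites in 28 nt near its start on chromosome 11. Levels were highest in the middle of this run. From 106920243 to 106920270 they were 0.2, 0.3, 0.636, 0.65, 0.667, 0.615, 0.5, 0.286 and 0.231, at 13 to 18 covering reads. Elmsan1, renamed Mideas in RefSeq, a histone deacetylase complex gene, had a site of 0.762 called in both replicates at 84149881 on chromosome 12. This was the highest level among the sites with both calls. Actr2, which encodes a subunit of the Arp2/3 actin complex, had 5 sites in 15 nt with levels between 0.235 and 0.75. Zfp36l1, the gene of an mRNA decay factor, had sites of 0.2, 0.2 and 0.929. Npm1, the nucleophosmin gene that is often mutated in human acute myeloid leukemia, had 8 sites in 2 groups with levels between 0.2 and 0.595, and 2 of them were called in both replicates.

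With 20 or more reads used, and counting only the highest site of each gene, the highest level outside Rpph1 was in Rab28, a small GTPase gene. Its single site at 41708018 on chromosome 5 was called in both replicates, with levels of 0.435 and 0.561 in the 2 KO libraries (mean 0.498 ± 0.0891, SD). Which library had which level is not given. Zdhhc18 followed with 12 of 27 reads (0.444, Wilson interval 0.276 to 0.627), and Snx5, a sorting nexin gene, and Bend4 with 9 of 23 reads each (0.391, 0.222 to 0.592). The Snx5 site was covered by 167 reads, of which 13.8% were used. Ankrd13b (0.381), Tmem30a and Tmem5 (0.333 each), Hnrnpa0 (0.327) and Rbm39 (0.318) completed the 10 genes. Hnrnpa0 and Rbm39 encode RNA-binding proteins. These were the highest of many sites, and the intervals do not allow for that choice.

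The deepest site of each gene was taken for coverage, and of the first 5 such sites 4 had levels between 0.202 and 0.247, whereas the Snx5 site stood at 0.391. Tln1, which encodes talin, had 17 unconverted reads of 84 used at 43543440 on chromosome 4 (0.202, Wilson interval 0.130 to 0.3004), with 218 covering reads. Basp1 had the same 17 of 84 reads at 25364547 on chromosome 15, under 163 covering reads. Tceb3, an elongin gene, stood at 0.22 with 11 of 50 reads. The Hnrnpa0 site at 58127352 on chromosome 13 rested on the most reads used, 24 of 97 (0.247, interval 0.172 to 0.342). At these 4 sites the upper limits of the intervals lay between 0.3004 and 0.352.

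At the most deeply covered sites with both calls, again 1 per gene, the 2 libraries gave close levels in several genes. No listed level lies below 0.2, so means near that floor leave the libraries little room to differ. Close levels there are therefore no measure of agreement between the libraries. Ier5, an immediate early gene, stood at 0.271 and 0.277 (mean 0.274 ± 0.00424, SD, n = 2) at 155098398 on chromosome 1, under a mean of 109 covering reads. Nfkbia, which encodes an inhibitor of NF-kappa-B, stood at 0.231 and 0.233 at 55491757 on chromosome 12. Eif4g2, a translation initiation gene, had the floor of 0.2 in both. The other 7 of the 10 had mean levels between 0.225 and 0.268. These were Cast, Tmem55b, Sqstm1, Slc25a1, Ddx21, Ppp1r12c and Zdhhc18, and their SDs ran between 0.0127 and 0.0707. Sqstm1 encodes the autophagy receptor p62 and Ddx21 a nucleolar RNA helicase. All 10 mean levels lay between 0.2 and 0.274.

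One site called in both replicates lay in an annotated microRNA hairpin, Mir7654, which sits inside Arglu1. The site lies 403 nt from the 5′ end of the RefSeq span of Arglu1, outside the start window. The hairpin is shown because it gives the sequence on either side of a replicated call. Its RefSeq sequence on the minus strand, with the listed base in capitals, is as follows.
Mir7654, chr8:8690093-8690162: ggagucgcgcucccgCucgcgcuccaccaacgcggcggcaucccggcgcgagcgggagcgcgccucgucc
The listed C at position 8690147 is base 16 of the 70 bases. Its level was 0.229 ± 0.00424 (SD, n = 2) at a mean of 78 covering reads. A second hairpin, Mir6935 inside Actg1, held a site with 2 unconverted reads under 25 covering reads. Whether these reads came from the microRNA precursor or from the host transcript cannot be told apart.

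Gene groups that fit a leukemia cell differed in how many of their members had a site, from 7 of 21 ribosomal protein genes to 17 of 19 chromatin genes. Over all minus-strand protein-coding genes of known strand, 1619 of 8762 (18.5%) had such a site, and over plus-strand genes 51.4% had a plus-strand site. Plus-strand members had plus-strand sites in 35 of 35 ribosomal protein genes, 16 of 16 chromatin genes and 16 of 16 translation factors. RAS and MAPK genes had them in 15 of 15, cell cycle genes in 12 of 12 and antigen presentation genes in 16 of 16. Myeloid genes had 10 of 10, and blood transcription factors 14 of 15. Cytoskeleton genes had 10 of 12 and cytosine methylation genes 9 of 10. The lists were chosen with earlier results of these data known, and no list was tested. A site needs reads, and how strongly each gene is expressed was not analysed here. Chromatin remodellers and histone enzymes had a site in 17 of 19 minus-strand members, with a median level of 0.229 over 84 sites. With members whose strand is not in the table used, 24 had a site, led by Arid1a, Kdm6b and Kmt2d. Kmt2d, which encodes a methyltransferase of histone H3, had 8 sites with levels between 0.2 and 0.273.

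Cytoskeleton and motor genes had sites in 13 of 21 members, led by Iqgap1 with 7. The formin gene Diaph1, whose strand is not in the table used, had 6. RAS and MAPK genes had sites in 9 of 16, including Rasa3, which encodes a RAS GTPase-activating protein, with 3 sites and Ptpn11, the phosphatase gene of SHP2, with 2. Cell cycle genes had sites in 9 of 16, led by Ccnf with 4 and the topoisomerase gene Top2a with 3, of which the highest was 0.727. Translation factors had sites in 6 of 13. Pabpc1, which encodes the poly(A)-binding protein and whose strand is not in the table used, had 8 sites and Eif5a 9. Blood stem cell and leukemia transcription factors had sites in 7 of 19, led by Stat3 with 5 and Tcf3 with 4. Ribosomal protein genes had sites in 7 of 21, and Rps20, whose strand is not in the table used, had 2 sites of 0.4 and 0.6.

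Genes that write, read or erase cytosine methylation had sites in 7 of 16 minus-strand members, with a median level of 0.2125 over 12 sites and 0 calls in both replicates. Tet2 had 1 site of 0.273 from 3 of 11 reads (Wilson interval 0.0975 to 0.566), and Tspan13, a tetraspanin gene, 1 site of 0.2 from 2 of 10. The Tet2 site is no check of the knockout, since the deleted part is not given. Alyref, whose product exports mRNA and recognises 5-methylcytosine, had 4 sites, 3 of them in the first 10% of the gene. Mbd6 had 3 sites up to 0.294. The others were single sites in Tet3, Mbd3, Dnmt1 and Mbd4, with levels between 0.2 and 0.273. Among genes of myeloid granules and differentiation, 6 of 16 had a site, such as Cd33 with 3 and the Fc receptor gene Fcgr3 with 1 of 0.4. Antigen presentation genes had sites in 3 of 7, including the chaperone gene Canx and H2-Aa.

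For markers of other cell types, no minus-strand site was listed in 9 markers of T, NK and B cells, 4 of red cells and megakaryocytes, 3 of liver, 4 of brain or 9 of muscle and heart, all on the minus strand, where the share over protein-coding genes was 18.5%. For stroma and endothelium it was 0 of 4, and Pecam1, of a strand not in the table used, had 1 site of 0.2. Over plus-strand protein-coding genes, the share with a plus-strand site was 51.4%. Plus-strand members of these lists had plus-strand sites in 1 of 8 for T, NK and B cells, 3 of 8 for red cells and megakaryocytes and 2 of 9 for liver. For brain it was 0 of 4, for muscle and heart 0 of 6, and for stroma and endothelium 1 of 6. The table holds only called sites, so these counts set no limit on expression. The word non-pancreatic fits the rule but not every member. Cela2a, the gene of a pancreatic elastase, was not among the 6 excluded genes and had 3 sites of 0.8, 1 and 0.545 on 10, 10 and 11 reads used. It was the 1 gene with a site among 16 minus-strand pancreas markers, with sites of the excluded genes not counted. Cpe, of a strand not in the table used, had 1 site of 0.231. Among 21 plus-strand pancreas markers, 3 had a plus-strand site. The 429 excluded sites had a median level of 0.57 at 54 covering reads, and 62.2% of them were called in both replicates.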

How the data were processed

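Bisulfite-converted poly(A) RNA of 2 Tet2 KO and 2 WT libraries was sequenced, and the table analysed merges both KO libraries, per the file headers. The kit was stranded, per the labels' protocols. Positions are on mm10, the build named in the submitters' processing notes. For aligner and caller, nothing was given in the sources used here. Levels were deposited as a fraction, averaged over the KO replicates with a call. The authors' read numbers are a score: whole reads for 1 call, else means rounded by the authors. The authors' combined p-values reached 0.000114 (state) and 0.0773 (rate) at most in the authors' deposited table over these sites, and were not used further. The deposited SD was read as a population SD, because the lower library then stood at 0.2 in 28.6% of sites with both calls, against 5.36% with the other divisor. Library totals were not used, and coverage per site sets the precision. Columns that belong to another series numbered 0. The planned Tet2 KO against WT test could not be made without WT values.

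Reads used were computed as unconverted reads over level, exact at all sites with 1 call (tolerance 0.0006 in level) and approximate at others. Labels were matched to RefSeq GRCm38.p6 by symbol or synonym (2034 of 2044). Strand came from the RefSeq start windows and was available for 1633 labels. Intervals (Wilson for levels, Clopper-Pearson for shares, 95%) cover counting error only, as reads carry no molecular identifiers. Scripts used Python 3.11, pandas 2.3.3 and scipy 1.17.1, and were tested on simulated data.

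Members and the 17 gene lists were chosen with earlier results of these data known. Named were the 12 genes with most sites, the 10 highest sites at 20 or more reads used, the 10 most covered with both calls and the 5 most covered (each 1 site per gene), 2 members per list, and Tet2, Tspan13, Alyref and Mbd6. Genes with runs of high levels, further list members, the start-window genes and Rmrp were chosen after their values were seen. Alternatives were coverage of 20 or 30 reads, 20 reads used, both calls, and leaving out overlaps, tissue genes or genes with 10 or more sites.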

Additional observations from a re-analysis of the deposited data

Results flagged for a closer look

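Listed sites were also found in 2 sets of minus-strand sites that the comparisons do not use. Chromosomes held 356 minus-strand sites without a gene label, with a median level of 0.242 and 36 calls in both replicates. Synthetic spike-in sequences of the ERCC set held 208 minus-strand sites on 9 sequences, with a median level of 0.5. Both replicates made the call at 49 of these 208, against 168 of the 3768 sites in non-pancreatic genes, whose median level was 0.214. No WT value was there to set beside either of the 2 sets.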

How the results depend on the processing

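No paired analysis was possible because the table holds 0 columns with WT values. Leaving out each replicate was not run, since a site called in 1 replicate does not say which. Of the values under the alternatives, 22 stayed close to the reported one and 19 moved, as follows. At a coverage of at least 20 reads, the median level was 0.222, and 16.8% of sites had a listed site within 10 nt. At 30 reads, 1707 sites in 1212 genes remained, at a median of 0.222, 5.33% called in both replicates and 14.5% with a listed site within 10 nt. With 20 or more reads used, 436 sites in 320 genes remained, at a median of 0.219, 6.42% in both, 32.3% with a neighbour and 19.8% in the last 10% of the gene. The 168 sites with both calls, in 143 genes, had a median of 0.263, 39.9% with a neighbour and 21.3% in the last 10% of the gene. Without genes of 10 or more sites, 17.96% had a neighbour. The cause was not tested. The share called in both replicates is fixed for sites with both calls and not given there. The floors of 10 reads used and 0.2 in level limit the precision, since 34.2% of sites with 1 call rest on 2 of 10 reads, with a Wilson interval of 0.0567 to 0.510. Without WT or single-library values, no statement on Tet2 can rest on these sites.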
